A study of Mus musculus with 8 samples.

Results

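The SOX and T-box genes are 2 families of developmental transcription factor genes, and DNA methylation was described at 31 of them, 16 Sox and 15 T-box genes, out of 21887 protein-coding genes. The members were taken by name, from a list chosen with earlier results of these data known. For each, the 200 bp tiles overlapping its RefSeq span in GRCm38, or the 2 kb on either side, were collected from the deposited tables. This gave 286 distinct tiles, listed 480 times, among 53375 distinct tiles listed 75041 times in the whole series. In all, 28 of the 31 members had a listed tile. The share of all genes with a listed tile was not computed, so this count has no background beside it. Sox4, Sox15 and Tbx22 had 0.

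Reduced representation bisulfite sequencing, an assay of restriction fragments rich in CpG sites, had been run on organoids from the proximal 2.5 cm of the colon of male mice about 40 days old. All organoids came from mice heterozygous for a Cre-activable BrafV600E allele (Braf+/LSL), so the controls carry that allele in its inactive form. Organoid lines 1 and 3 are the only replicates, with 8 libraries in 4 groups. In BrafV600E organoids lentiviral Cre had switched on the constitutively active BRAF kinase, and they were grown for 5 months and then in Base medium, which lacks stem cell niche factors. The full medium held Wnt3a, R-Spondin, Noggin and EGF. Their controls were empty-vector (EV) organoids, given the lentiviral backbone alone and kept for 5 months in full medium. The other comparison set EV organoids kept in full medium for 12 months (line 1) or 14 months (line 3) against EV organoids of the same line at 2 months. Each label adds 3 more weeks in the stated medium. The design text speaks of 2 biological replicates, and whether the lines came from separate mice is not given in the labels.

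Within each line the authors compared 1 library with 1 library and listed only tiles differing by at least 20 percentage points of methylation at a q-value of at most 0.01. "Gained" and "lost" below mean listed as higher or lower by those limits, and a difference is a methylation level in percent minus that of the control. The depth is unknown, no tile has a replicate within its line, and a tile missing from a table may have been unchanged or not covered. Tiles that start with little methylation have room only to gain, and starting levels were not used here. Oncogene and medium change together in the BrafV600E comparison and cannot be told apart. Labels conflict for 2 libraries. The line 3 library titled 14 months is given as 2 months by its culture time and source name, and the line 1 BrafV600E library has line 3 in its source name. Titles were followed, and each line is given alone. No expression values were used, so the epithelial identity of the organoids was not checked.

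SOX proteins bind DNA through an HMG box that bends it, and T-box proteins through the T domain. Both families set cell identity in the embryo, SOX factors chiefly in neural, neural crest, cartilage and gonad lineages and T-box factors in mesoderm, heart, limb and some lymphocytes. In the adult intestinal epithelium Sox9 marks crypt progenitor cells, while Sox10 belongs to the enteric glia outside the epithelium. Start sites of such developmental genes often lie in CpG islands, which are usually free of methylation in normal cells.

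Promoter bases were printed for the members named by rule in which a listed tile lay within 2 kb of a start site in at least 3 of the 4 comparisons and overlapped the 250 bases before that site. The sequences are from RefSeq (GRCm38.p6), run 5′ to 3′ on the gene's strand and end just before the start site. Capitals mark each CpG, the dinucleotide whose methylation was measured. They are Sox1 at chr8:12395269-12395518 (+ strand), Sox2 at chr3:34649745-34649994 (+), Sox11 at chr12:27342719-27342968 (- strand), Tbx6 at chr7:126781233-126781482 (+) and Eomes at chr9:118477939-118478188 (+).
Sox1: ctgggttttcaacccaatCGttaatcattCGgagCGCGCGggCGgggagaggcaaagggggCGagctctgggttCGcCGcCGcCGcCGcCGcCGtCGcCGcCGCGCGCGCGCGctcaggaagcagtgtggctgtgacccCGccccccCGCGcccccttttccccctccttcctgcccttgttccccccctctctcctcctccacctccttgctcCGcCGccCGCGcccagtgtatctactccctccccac
Sox2: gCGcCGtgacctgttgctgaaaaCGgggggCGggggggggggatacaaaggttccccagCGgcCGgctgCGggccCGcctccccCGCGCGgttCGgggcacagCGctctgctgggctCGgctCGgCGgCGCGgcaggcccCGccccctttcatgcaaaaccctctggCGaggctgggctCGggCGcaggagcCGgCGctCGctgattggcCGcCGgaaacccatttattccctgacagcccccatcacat
Sox11: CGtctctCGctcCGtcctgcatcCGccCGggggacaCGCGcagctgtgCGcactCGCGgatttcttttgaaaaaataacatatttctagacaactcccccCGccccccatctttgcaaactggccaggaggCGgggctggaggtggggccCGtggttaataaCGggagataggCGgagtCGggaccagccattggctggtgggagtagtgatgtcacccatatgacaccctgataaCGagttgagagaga
Tbx6: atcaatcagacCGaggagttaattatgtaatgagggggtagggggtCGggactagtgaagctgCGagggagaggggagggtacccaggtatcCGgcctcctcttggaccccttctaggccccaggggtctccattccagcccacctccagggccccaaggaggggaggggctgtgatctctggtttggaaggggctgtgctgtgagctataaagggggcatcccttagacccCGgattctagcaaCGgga
Eomes: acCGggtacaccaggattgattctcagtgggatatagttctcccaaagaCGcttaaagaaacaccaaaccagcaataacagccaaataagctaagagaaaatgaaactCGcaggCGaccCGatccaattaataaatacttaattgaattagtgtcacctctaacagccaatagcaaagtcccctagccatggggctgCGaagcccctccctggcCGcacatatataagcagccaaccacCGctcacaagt

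The 5 runs differ in CpG content, with 29 CpGs for Sox1, 27 for Sox2, 17 for Sox11, 8 for Eomes and 6 for Tbx6. The median was 9.5 over the 32 start sites of the 24 members found in the RefSeq promoter table and 6 over all 32851 start sites. CCGG, the palindrome cut by MspI, the enzyme commonly used for this assay, occurred in the 250 bases of 53.1% of the members' start sites and 47.1% of all. It was absent from the Sox1 run and occurred 3 times in the Sox2 run. Listed tiles covered all 17 CpGs of the Sox11 run, 23 of Sox2, 7 of Sox1, 4 of Tbx6 and 2 of Eomes. At the Sox1 run the tile gained 84.5 points with long culture in line 3 and lost 32.5 points (difference -32.5) with BrafV600E in the same line, in the authors' deposited tables. At the Sox2 run a tile was listed only in line 3 with long culture, with 66.4 points in the authors' deposited table. The Sox11 run was covered by 2 tiles, whose mean difference was 39.6 points in line 1 with BrafV600E and 65.2 in line 3 with long culture. At 1 of these 2 tiles the authors' deposited tables gave -25.0 points in line 3 with BrafV600E, and at the other 22.4 in line 1 with long culture. The tile at the Tbx6 run gained 82.5 points in line 3 with BrafV600E and 91.9 points in line 1 with long culture. The tile at the Eomes run gained 32.6 and 24.6 points, each in the authors' deposited tables. These tiles overlapped 168 of the 250 bases at Tbx6 and 62 at Eomes. All these values are of whole tiles, and which CpGs in a tile were read is not known. The Eomes tile also lies in Gm33408.

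Gains outnumbered losses at the members in all 4 comparisons. With BrafV600E, 13 of 31 members in line 1 had gained tiles and no lost tile, referred to as gained only. They were Sox1, Sox2, Sox9, Sox10, Sox11, Sox14, Tbx1, Tbx4, Tbx15, Tbx18, Tbx20, Tbr1 and Eomes. Over all protein-coding genes 13.3% had that call. In line 3 the members gained only were 7, against 12.1% of all genes: Sox2, Sox12, Sox21, Tbx6, Tbx15, Tbx19 and Eomes. With long culture 11 members were gained only in line 1, against 5.74% of all genes, and 18 in line 3, against 14.8%. As shares of the 31 members these counts are 41.9%, 22.6%, 35.5% and 58.1%. The background includes genes in which the assay may have read no tile, and no test of the difference was made. The list of members was chosen with earlier results of these data known, so these shares are description only.

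Calls of lost tiles alone were fewer than calls of gained tiles alone. They were 1 to 5 members in a comparison, too few to read a difference from all genes or between the lines, and none was tested. With BrafV600E, 3 members in line 1 (Sox3, Sox13 and Tbx3) and 3 in line 3 (Sox8, Tbx10 and Tbx21) were lost only, or 9.68% in each line, against 6.0% and 11.5% of all genes. With long culture they were 5 in line 1 (Sox5, Sox8, Sox10, Sox21 and Tbx18, 16.1%), against 8.06%, and 1 in line 3 (Tbx6, 3.23%), against 6.71%. Tiles of both directions occurred at 6 and 14 members with BrafV600E in lines 1 and 3, where the background was 4.54% and 8.83%. With long culture they occurred at 4 and 5 members, where it was 2.81% and 5.49%.

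**Figure D1:**
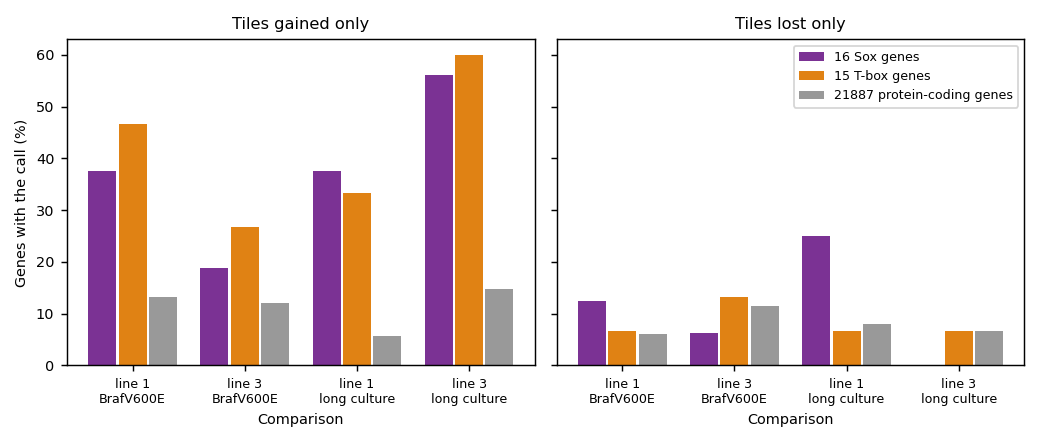
Share of genes (percent, vertical axis) whose listed tiles all gained (left panel) or all lost (right panel) in each of the 4 within-line comparisons, for 16 Sox genes, 15 T-box genes and all 21887 protein-coding genes; bars are shares of genes with no error, since each comparison is 1 library against 1 library. In line 3 with long culture 56.2% of Sox and 60% of T-box genes were gained only, against 14.8% of all genes.

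The families were close to each other in these calls. Gained-only Sox and T-box genes numbered 6 and 7 in line 1 and 3 and 4 in line 3 with BrafV600E, and 6 and 5 and then 9 and 9 with long culture. They differed more at single tiles. With BrafV600E, 76.2% of 63 Sox listings and 86.4% of 66 T-box listings were gains in line 1, and 61.7% of 60 and 73.6% of 72 in line 3. The share of gains among all listed tiles was 67.5% and 40.4%. With long culture gains made up 55.6% of 27 Sox and 77.4% of 31 T-box listings in line 1, against 40.9% of all tiles, and 94.0% of 67 and 96.8% of 94 in line 3, against 71.9%. The size of a listed gain was like that of other tiles. The members' median gains were 42.1 and 42.6 points with BrafV600E and 37.0 and 46.5 with long culture in lines 1 and 3, beside 42.8, 44.1, 39.5 and 44.2 points over all tiles.

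**Figure D2:**
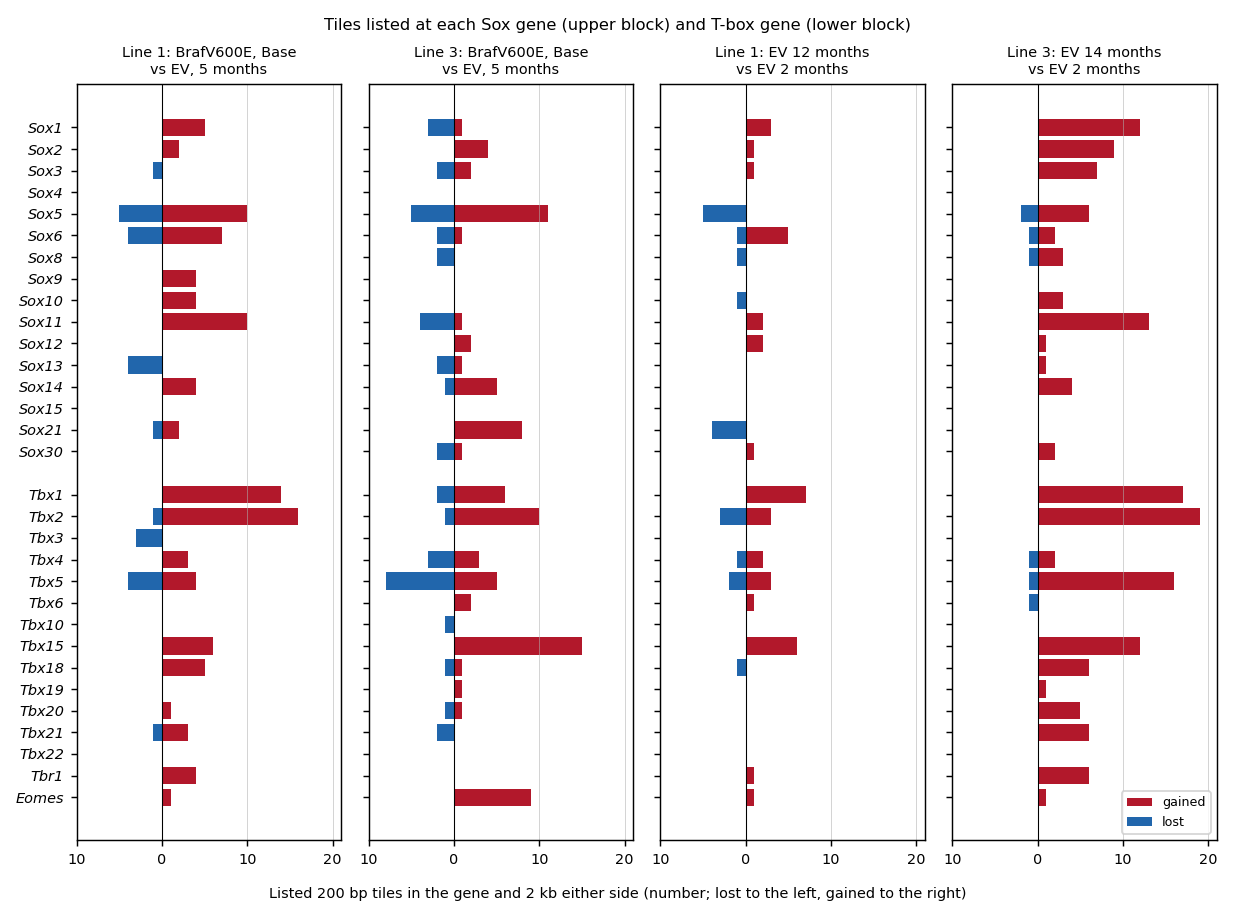
Number of listed 200 bp tiles in each member gene and 2 kb either side (horizontal axis, lost to the left in blue and gained to the right in red), 1 panel for each within-line comparison, Sox genes above and T-box genes below. Tbx2 in line 3 with long culture has the most gained tiles (19), and Sox4, Sox15 and Tbx22 have none in any panel.

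Calls made in both lines cannot outnumber those of either line. With BrafV600E 3 members, Sox2, Tbx15 and Eomes, were gained only in both lines (9.68%, against 4.31% of all genes), and 0 were lost only in both (background 1.69%). With long culture 10 were gained only in both lines, namely Sox1, Sox2, Sox3, Sox11, Sox12, Sox30, Tbx1, Tbx15, Tbr1 and Eomes (32.3%, against 3.03% of all genes), and 0 were lost only in both (background 1.16%). Sox2, Tbx15 and Eomes were gained only in all 4 comparisons, a pattern shared by 0.553% of all genes. With the limit raised to 40 points, only Tbx15 of these 3 kept its call in both lines with BrafV600E. For Eomes, every tile outside line 3 with BrafV600E lay beside the gene span, in another gene. For Sox2, the only tile of line 1 with long culture lay past the 3′ end. These 3 genes encode a pluripotency and neural progenitor factor, a factor of skeletal and skin mesenchyme, and Eomesodermin, a factor of trophoblast, endoderm and lymphocytes. A member with many tiles is more easily given calls in both directions, which touches Sox5 and Sox6, at 954 and 569.9 kb the longest members. The median length was 4.79 kb for the Sox genes, 17.3 kb for the T-box genes and 17.2 kb for all genes.

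Among the SoxB1 genes, which keep neural progenitors undifferentiated, Sox2 (chromosome 3, 34649995 to 34652461) carried 2 gained tiles in line 1 and 4 in line 3 with BrafV600E, with means of 37.6 and 31.8 points. The long cultures carried 1 and 9, at 55.9 points and a mean of 58.7. The 1 tile of line 1 (chr3:34653601-34653800) lay past the 3′ end of Sox2. With 0 kb either side Sox2 was thus not gained only in both lines with long culture. In line 3 with long culture 6 of the 9 tiles were adjacent. A tile 1106 bp after the start site (chr3:34651001-34651200) was gained in both lines with BrafV600E, by 42.1 points (q = 2.43e-07) and 30.2 points (q = 0.00101) in the authors' deposited tables. All Sox2 tiles also lie in the noncoding gene Sox2ot, so these gains cannot be assigned to either gene.

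Sox1 (chromosome 8, 12395519 to 12399555) had 5 gained tiles in line 1 with BrafV600E (mean 32.5 points). In line 3 it had 1 gained and 3 lost tiles, with a mean loss of -31.1 points. Under long culture Sox1 was gained only in both lines, at 3 tiles in line 1 (mean 43.0 points) and 12 in line 3 (mean 62.2, lowest 28.7 and highest 100 in the authors' deposited table). The tiles chr8:12400801-12401000 and chr8:12401001-12401200, listed in both lines with long culture, lay past the 3′ end of Sox1. Of the 3 tiles lost with BrafV600E in line 3, all were gained with long culture in that line, by 84.5, 84.1 and 51.8 points in the authors' deposited table, and 2 were gained with BrafV600E in line 1. The lines thus went opposite ways at 2 Sox1 tiles with BrafV600E. Only 1 of these was listed in both lines with long culture (chr8:12396601-12396800), where the authors' deposited tables give gains of 37.0 and 51.8 points. The Sox1 tiles lie within the noncoding gene Sox1ot as well.

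Sox3 (chromosome X, 60891366 to 60893430), the X-linked member of that group, also had tiles of both directions with BrafV600E and gains alone with long culture. With BrafV600E it had 1 lost tile in line 1, at -40.0 points, and 2 gained and 2 lost tiles in line 3. Long culture gave Sox3 1 gained tile in line 1 and 7 in line 3 (mean 60.3 points). The tile at chrX:60895001-60895200 was listed in all 4 of the authors' deposited tables, with differences of -40.0 and 57.7 points for BrafV600E and 74.9 and 75.7 points for long culture in lines 1 and 3. It lies beyond the Sox3 span, in Gm38438, and was the only Sox3 tile listed in line 1. Sox3 was thus not gained only in both lines with 0 kb either side or with only tiles in no other gene.

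The SoxB2 genes Sox14 and Sox21, which promote neuronal differentiation, differed from each other. Sox14 (chromosome 9, 99874106 to 99876170) had 4 gained tiles in line 1 (mean 48.5 points) and 5 gained and 1 lost in line 3 with BrafV600E, none in line 1 with long culture and 4 gained in line 3 (mean 47.0 points). Sox21 (chromosome 14, 118233233 to 118237030) had 8 gained tiles and 0 lost in line 3 with BrafV600E, with a mean of 77.7 points and a highest value of 100 points in the authors' deposited table. Its 5 adjacent tiles at 2129 to 2929 bp after the start site had gains of 22.5, 100, 90.0, 94.2 and 70.0 points in the authors' deposited table. In line 1 with BrafV600E Sox21 had 2 gained tiles and 1 lost, with a mean gain of 44.9 points. In line 1 with long culture it had 4 lost tiles and 0 gained (mean -56.1 points), and in line 3 it had no listed tile. At the 2 tiles past the 3′ end that line 1 gained with BrafV600E, by 45.2 and 44.5 points, the same line lost methylation with long culture, with -65.5 and -70.4 points in the authors' deposited tables.

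Among the SoxC genes, which act in neuronal and mesenchymal progenitors, Sox11 stood out by its run of tiles over the start site (chromosome 12, gene 27334268 to 27342718). In line 1 with BrafV600E 10 tiles gained and 0 lost, from 22.9 to 68.8 points in the authors' deposited table, with a mean of 44.2. Of these, 7 were adjacent. In line 3 with BrafV600E 4 tiles lost (mean -27.3 points) and 1 gained, at 44.8 points. Each of those 4 tiles had gained in line 1, so the lines differed in direction at 4 of the 4 tiles listed in both. With long culture 2 tiles gained in line 1 (mean 25.0 points) and 13 in line 3 (mean 54.8 points), 8 of them adjacent. A tile 3017 bp after the start site gained in both lines with long culture, by 27.6 points (q = 1.25e-07) and 40.0 points (q = 3.51e-44) in the authors' deposited tables.

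Sox12, of the same group, had 2 gained tiles in line 3 with BrafV600E (mean 35.3 points), 2 in line 1 with long culture (mean 32.3) and 1 in line 3 (47.5 points in the authors' deposited table). Its line 1 and line 3 tiles with long culture were different tiles. Sox4, active in intestinal secretory progenitors, had no listed tile in any table, which does not show that its methylation was unchanged.

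**Figure D3:**
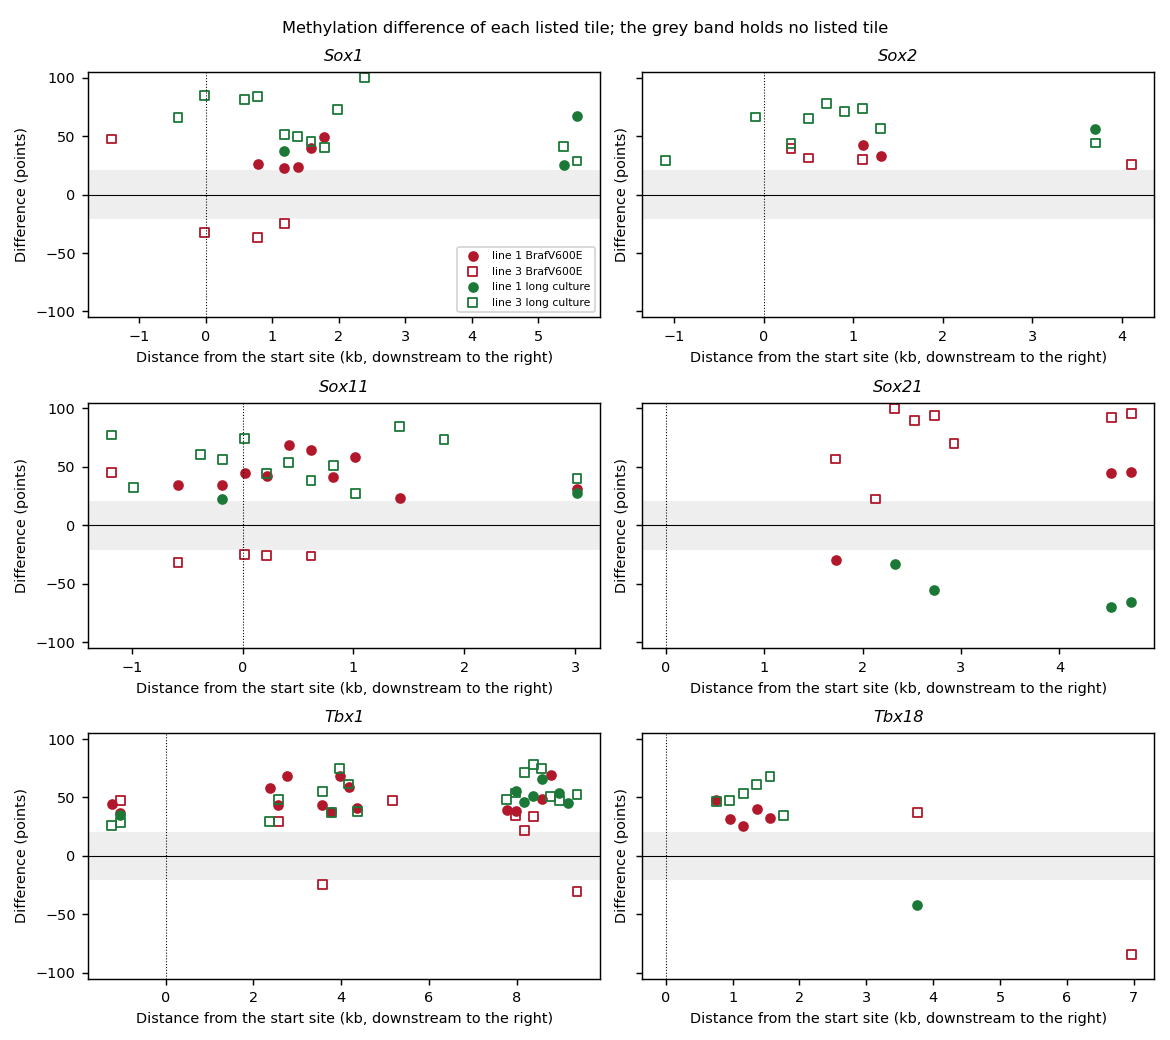
Methylation difference (percentage points, vertical axis) of each listed tile against its distance from the outermost start site in the RefSeq promoter table (kb, horizontal axis) for Sox1, Sox2, Sox11, Sox21, Tbx1 and Tbx18; red is BrafV600E, green is long culture, filled circles are line 1 and open squares line 3, and each point is 1 tile of 1 library against 1 library. Within 1 kb of the Sox11 start site line 1 with BrafV600E lies above the axis and 4 tiles of line 3 lie below it.

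The SoxD genes, which modulate cartilage and oligodendrocyte programmes with no activation domain of their own, mostly had tiles of both directions. Sox5 (chromosome 6) had 10 gained and 5 lost tiles in line 1 and 11 and 5 in line 3 with BrafV600E. For long culture the counts were 0 and 5 in line 1 and 6 and 2 in line 3. Its tile chr6:144782201-144782400, at the end of the gene with the highest coordinate, was listed in all 4 of the authors' deposited tables, at 62.3 and -40.3 points with BrafV600E and -68.4 and 27.7 points with long culture in lines 1 and 3. Sox6 (chromosome 7) had 7 gained and 4 lost tiles in line 1 and 1 and 2 in line 3 with BrafV600E. With long culture Sox6 had 5 gained and 1 lost in line 1 and 2 and 1 in line 3. At Sox6 as well a tile was listed in all 4 of the authors' deposited tables (chr7:116034601-116034800), at 60.5, -39.5, -41.7 and 37.1 points in the same order. At both of these tiles the lines went opposite ways in each comparison, and each line went opposite ways in the 2 comparisons. Sox13, the remaining SoxD gene, had 4 lost tiles and 0 gained in line 1 with BrafV600E (mean -27.4 points) and 2 lost and 1 gained in line 3. In long culture 1 Sox13 tile was listed (chr1:133397601-133397800), a gain in line 3 of 40.6 points in the authors' deposited table. The same tile was lost in both lines with BrafV600E, with -26.3 and -26.1 points in the authors' deposited tables. Another Sox13 tile, chr1:133413001-133413200, was also lost in both lines with BrafV600E, with -34.4 and -61.5 points in the authors' deposited tables.

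The SoxE genes act in neural crest, glia, cartilage and gonad. Sox9 (chromosome 11, 112782210 to 112787757), the crypt progenitor gene, had 4 gained tiles in line 1 with BrafV600E (35.9, 31.7, 40.2 and 28.1 points in the authors' deposited table). It had no listed tile in the other 3 comparisons, so this gain was seen in 1 line. Sox10 (chromosome 15, 79154913 to 79164490) had 4 gained tiles in line 1 with BrafV600E (mean 25.5 points) and none in line 3. With long culture it lost at 1 tile in line 1, at -26.6 points, and gained at 3 adjacent tiles in line 3 (mean 49.9 points). Sox8 had 2 lost tiles in line 3 with BrafV600E (mean -53.3 points), 1 lost in line 1 with long culture and 3 gained and 1 lost in line 3.

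Sox30, a testis factor, had 1 tile 591 bp after its start site that gained in 3 of the authors' deposited tables, by 35.6 points in line 3 with BrafV600E and by 29.8 and 54.5 points with long culture. It also had 2 lost tiles in line 3 with BrafV600E. Sox15 had no listed tile.

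Of the Tbx1 subfamily, Tbx1 (chromosome 16, 18580979 to 18590671), a factor of the pharyngeal arches and outflow tract, had 14 gained tiles and 0 lost in line 1 with BrafV600E (mean 49.9 points). In line 3 it had 6 gained (mean 35.7 points) and 2 lost. With long culture it gained at 7 tiles in line 1 (mean 50.3) and 17 in line 3 (mean 51.5), with 0 lost. Its tiles of lines 1 and 3 with long culture coincided at 6 positions, all gained in both. The largest shared gain was at chr16:18582001-18582200, at 65.6 points (q = 7.22e-64) in line 1 and 74.5 points (q = 4.68e-194) in line 3, from the authors' deposited tables. The tile chr16:18582601-18582800 gained in all 4 of the authors' deposited tables. Its gains were 38.7 and 34.1 points with BrafV600E and 55.8 and 53.8 with long culture, in lines 1 and 3. So did chr16:18591601-18591800, at 36.5, 47.5, 35.0 and 28.6 points in the same order. The tiles fell into a block toward the 3′ end of the gene, a second from 2370 to 5170 bp after the outermost start site, and 2 tiles before that site at the noncoding gene Gm35369. The 250 bases before either start site overlapped no listed tile.

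Tbx15 (chromosome 3, 99240348 to 99354260) was gained in every comparison with 0 lost tiles. It had 6 gained tiles in line 1 and 15 in line 3 with BrafV600E, at means of 39.7 and 51.3 points, and 6 and 12 with long culture, at 33.2 and 41.9 points. Of these, 5 tiles were gained in both lines with BrafV600E and 3 in both lines with long culture. The tile chr3:99254401-99254600 gained 54.1 points (q = 0.00124) and 50.8 points (q = 0.000678) in lines 1 and 3 with BrafV600E in the authors' deposited tables. The tile chr3:99241001-99241200 gained 45.5 and 47.1 points with long culture in the authors' deposited tables, and it overlaps the predicted gene Gm46817. All 21 tiles lay between 99239201 and 99261800, at the end of the gene with the lowest coordinates.

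Tbx18 (chromosome 9, 87702800 to 87731260), a factor of the epicardium and ureter, gained at 5 adjacent tiles in line 1 with BrafV600E (mean 35.6 points). In line 3 with long culture it gained at 6 adjacent tiles (mean 51.7 points), and these include the same 5. Elsewhere in the gene it lost methylation, at 1 tile in line 1 with long culture (-41.7 points) and 1 in line 3 with BrafV600E (-84.5 points in the authors' deposited tables). The tile lost in line 1 with long culture (chr9:87727401-87727600) was gained in line 3 with BrafV600E, by 36.8 points in the authors' deposited table. Tbx20, a heart factor, had 1 gained tile in line 1 with BrafV600E (81.2 points), 1 gained and 1 lost in line 3, and 5 gained in line 3 with long culture (mean 61.9 points). Tbx10 had 1 listed tile, lost in line 3 with BrafV600E at -63.8 points in the authors' deposited table. Tbx22, the palate factor, had none.

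In the Tbx2 subfamily Tbx2 and Tbx4 lie near each other on chromosome 11, as Tbx3 and Tbx5 do on chromosome 5. Tbx2 (85832615 to 85841948), which represses cell cycle inhibitor genes, had 16 gained and 1 lost tile in line 1 and 10 and 1 in line 3 with BrafV600E, with mean gains of 52.1 and 43.8 points. Long culture brought 3 gained and 3 lost tiles in line 1 and 19 gained and 0 lost in line 3 (mean 45.8 points). The tile chr11:85831001-85831200, before the span of Tbx2 and within the gene 2610027K06Rik, gained in 3 of the authors' deposited tables, at 37.9 and 27.4 points with BrafV600E and 22.1 points with long culture in line 3, and lost in line 1 with long culture at -48.2 points. Tbx3, its closest relative, had 3 lost tiles in line 1 with BrafV600E (mean -38.5 points) and no tile elsewhere.

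The limb genes Tbx4 and Tbx5 had tiles of both directions in most comparisons. Tbx4 had 3 gained and 0 lost tiles in line 1 and 3 and 3 in line 3 with BrafV600E, and 2 and 1 in each line with long culture. Tbx5 (119796514 to 119885220), also a heart factor, had 4 gained and 4 lost tiles in line 1 and 5 and 8 in line 3 with BrafV600E. For Tbx5 in long culture they were 3 and 2 in line 1 and 16 and 1 in line 3. A Tbx5 tile, chr5:119831801-119832000, gained in all 4 of the authors' deposited tables, at 38.9, 53.2, 24.7 and 21.8 points, and it also lies in Gm5563.

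Of the Tbr1 subfamily, Eomes (chromosome 9, 118478186 to 118486132) rested on few tiles outside 1 library. It had 9 gained tiles in line 3 with BrafV600E (mean 40.5 points), 4 of them adjacent, and 1 in each of the other comparisons, at 29.0 points in line 1 with BrafV600E and 24.6 and 38.5 points with long culture in the authors' deposited tables. The tile gained in both lines with BrafV600E (chr9:118488001-118488200, 29.0 and 63.1 points in the authors' deposited tables) lies beyond the 3′ end, in Gm33460. The long-culture tiles lie before the start site, in Gm33408. Outside line 3 with BrafV600E, no listed Eomes tile thus lay in the gene span. With 0 kb either side, or with only tiles in no other gene, Eomes was not gained only in both lines of either comparison. Tbr1, a cortical neuron factor, had 4 gained tiles in line 1 with BrafV600E (mean 43.9 points), none in line 3, and 1 and 6 gained with long culture. A tile 1048 bp after its start site gained 38.3 points (q = 0.00342) and 41.1 points (q = 1.81e-09) in lines 1 and 3 with long culture in the authors' deposited tables. Tbx21, which encodes the T cell factor T-bet, had 3 gained and 1 lost tile in line 1 and 0 and 2 in line 3 with BrafV600E. With long culture it had none in line 1 and 6 gained in line 3 (mean 47.9 points).

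Tbx6, a factor of presomitic mesoderm, had 2 listed tiles, both before its start site. They gained 67.4 and 82.5 points in line 3 with BrafV600E in the authors' deposited table. With long culture the nearer tile gained 91.9 points in line 1 and the farther one lost, at -33.7 points in line 3, as the authors' deposited tables give them. Tbx19, a pituitary factor, had 1 gained tile in line 3 with BrafV600E, at 91.7 points, and another in line 3 with long culture, at 30.8 points in the authors' deposited tables.

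Tiles listed in both lines showed where the families parted. With BrafV600E, 26 Sox tiles were listed in both lines, of which 8 gained in both, 3 lost in both, 10 gained in line 1 but lost in line 3, and 5 changed the other way round. The same direction thus held for 42.3% of them. Of 22 T-box tiles 16 gained in both, 1 lost in both, 4 gained in line 1 but lost in line 3, and 1 changed the other way round, so that 77.3% had the same direction. Among all 5934 tiles listed in both lines that share was 73.9%. With long culture it was 80% for the 10 Sox and for the 15 T-box tiles, beside 68.5% of 3220 tiles in all. Every opposite member tile with long culture, 5 in all, was lost in line 1 and gained in line 3. Tiles of 1 gene are neighbours and not independent, and the difference between the families was not tested.

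Within a line the BrafV600E and long-culture comparisons use different libraries by title, from organoids of the same line. In line 3, 52 member tiles were listed in both comparisons. Of these, 30 gained in both, 21 lost with BrafV600E but gained with long culture, and 1, at Tbx6, changed the other way round, while 0 lost in both. The same direction held for 45% of 20 Sox tiles and 65.6% of 32 T-box tiles, beside 51.9% of 6964 tiles in all. In line 1, 26 member tiles were listed in both comparisons, of which 11 gained in both and 9 gained with BrafV600E and lost with long culture. The share with the same direction was 30.8% of 13 Sox tiles and 69.2% of 13 T-box tiles, or 50% together, beside 48.9% of 2384 tiles in all. The families thus lay on either side of the background. These are few tiles, many of them neighbours in the same genes and not independent, and the difference between the families was not tested.

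**Figure D4:**
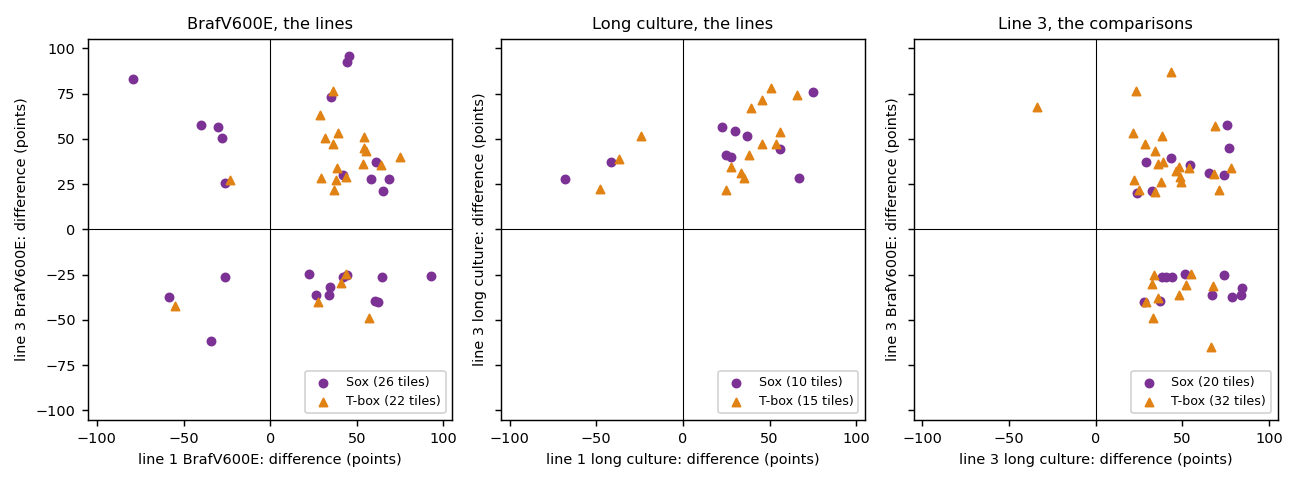
Methylation difference (percentage points on both axes) of member tiles listed in each of 2 comparisons: lines 1 and 3 with BrafV600E (left), lines 1 and 3 with long culture (middle) and, in line 3, long culture and BrafV600E (right); each point is 1 tile, purple circles Sox and orange triangles T-box. With long culture the 25 points all lie above 0 for line 3, and with BrafV600E 10 of the 26 Sox points lie to the right of 0 for line 1 and below 0 for line 3.

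Position relative to the start site was available for the 24 members in the RefSeq promoter table. Within 2 kb of a start site lay 54.8% of 252 gained listings and 33.8% of 65 lost listings, beside 58.1% and 31.4% for all protein-coding genes in that table. The pooled shares were near the background, but some single comparisons were not. In line 1 with long culture 0 of 13 lost listings and 50% of 26 gained listings lay within 2 kb of a start site, where all genes had 40.3% and 68.2%. Of these 13 lost listings 5 were at Sox5 and 4 at Sox21. Over all 4 comparisons the Sox shares were 58.5% of gains and 34% of losses, and for T-box genes 50% and 33.3%. In line 3 with BrafV600E the members' gains and losses had nearly the same share near start sites, 48.3% and 45.2%, where all genes had 51.1% and 26.6%. The Sox5 and Tbx4 start sites in that table lie well inside the genes, so tiles at the outer ends of Sox5 and Tbx4 count as distant.

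Other genes of both families and their known partners were listed as background to these counts. Over all protein-coding genes the gained-only share was 13.3% and 12.1% with BrafV600E in lines 1 and 3, and 5.74% and 14.8% with long culture. Of the 6 other family genes Sox7, Sox17, Sox18, Sry, T and Mga, 2 in line 1 and 3 in line 3 were gained only with BrafV600E, and 3 and 5 with long culture. Sox7 and Sox17, which act in endothelium and endoderm, were gained only in all 4 comparisons, as were 0.553% of all genes. T, the founding T-box gene, was lost only in line 1 with long culture, where 8.06% of all genes had that call. In the other comparisons 0 of the 6 were lost only. Of 13 partner genes, which encode POU, PAX, GATA, HAND and other factors known to act with SOX or T-box proteins, 9 in line 1 and 3 in line 3 were gained only with BrafV600E, and 6 and 9 with long culture. Those lost only were Pou3f2 and Gata5, in line 3 with BrafV600E, where 11.5% of all genes had that call. Hand1, a heart and trophoblast factor singled out after its calls were seen, was the partner gained only in every comparison.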

How the data were processed

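The 31 genes and the lists beside them were chosen with earlier results of these data known. The submitters' processing notes name FastQC 0.11.7, Trim Galore 0.4.4, Bismark 0.14.3, methylKit 1.7.4 and GRCm38 (mm10), with no role for each. Neither the coverage minimum nor the bisulfite conversion is stated in the labels or file headers. The authors deposited 8 tables of 200 bp tiles, with gained and lost tiles apart, for 4 comparisons within a line. The p-value and q-value of each tile are the authors' own, as deposited, from 1 library against 1 library. The deposited methylation difference is in percentage points by its range. The limits of 20 points and 0.01 were read from the values.

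Tiles were joined to RefSeq genes (GRCm38.p6) with pandas 2.3.3 in Python 3.11.15, by any overlap with the span and 2 kb either side, and the join was tested on simulated data. No test was run, since each arm has 1 library, and means are over listed tiles. Of the members, 24 had a start site in the RefSeq promoter table, and Sox3, Sox9, Sox10, Tbx2, Tbx3, Tbx5 and Tbx15 were not matched there.

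Members were named by rule within each comparison: the first 8 gained only in both lines, the first 4 lost only in both and the first 4 opposite in the lines, ranked by the smaller number of same-direction tiles in the lines and then by the smaller mean difference. Sox2, Sox4, Sox9 and Sox10 were always looked up. A single tile with its q-value is the one with the largest smaller difference among tiles listed in both lines. Other members and tiles were described after their values were seen. The alternatives were a difference of 40 points, a q-value of 0.001, 0 or 10 kb either side, 2 kb around start sites (around either gene end for members with none matched), tiles in no other gene, at least 2 tiles in a line, and each line alone.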

Additional observations from a re-analysis of the deposited data

Results flagged for a closer look

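Each pattern here is a difference between the lines in direction under the same comparison, and none of these differences was tested. With long culture Sox10 had a mean difference of -26.6 points in line 1 and 49.9 in line 3, Tbx18 -41.7 and 51.7, and Tbx6 91.9 and -33.7. The lines had no listed tile in common at these 3 genes.

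With BrafV600E, tiles gained in line 1 and lost in line 3 numbered 4 at Sox11, 2 each at Sox1, Sox5 and Tbx5, and 1 each at Sox6, Sox14, Tbx1 and Tbx2. Tiles lost in line 1 and gained in line 3 numbered 1 each at Sox3, Sox5, Sox6, Sox13, Sox21 and Tbx2. With long culture, tiles lost in line 1 and gained in line 3 numbered 2 at Tbx2 and 1 each at Sox5, Sox6 and Tbx5.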

How the results depend on the processing

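No paired analysis was possible because the deposited tables hold only each line compared with itself, 1 library against 1 library, and no test was run. Members gained only in both lines with BrafV600E were 1 Sox gene (Sox2) and 2 T-box genes (Tbx15, Eomes). The Sox count was 4 at a difference of at least 40 points (Sox1, Sox11, Sox14 and Sox21, without Sox2), 2 at a q-value of at most 0.001, 2 with 10 kb either side and 0 with only tiles in no other gene. The 4 genes at 40 points entered because their lost tiles all fell short of that limit. The largest losses were -36.45 (Sox1), -31.7 (Sox11) and -36.1 points (Sox14) in line 3 and -30.1 points (Sox21) in line 1. At Sox1 and Sox11 the 1 gained tile left in line 3 was not listed in line 1. No share of all genes was computed at 40 points. The T-box count was 1 with 0 kb either side, near start sites, with only tiles in no other gene and with at least 2 tiles in a line, each time Tbx15. Near start sites means within 2 kb of a start site or, for the 7 members with none matched, Tbx15 and Tbx5 among them, of either end of the gene, which may be the 3′ end. With long culture the 6 Sox genes became 3 with 0 kb either side, 3 with only tiles in no other gene and 2 (Sox1 and Sox11) with at least 2 tiles. The 4 T-box genes became 2 (Tbx1 and Tbx15) at 40 points and 2 with at least 2 tiles. Members lost only in both lines, 0 in each comparison, became 2 with BrafV600E near start sites (Sox6, and Tbx5 by its gene ends) and 1 with long culture at 40 points (Sox5). At Sox5 the 6 tiles gained in line 3 with long culture, at most 36.8 points, fell short of that limit. Leaving out line 1 or line 3 gave 3 to 6 Sox, 4 to 7 T-box and 3 to 3 lost-only members with BrafV600E, and 6 to 9, 5 to 9 and 1 to 5 with long culture. A call in 1 line asks less than a call in both. Of the libraries with conflicting labels, the BrafV600E one is in line 1 and the long-culture one in line 3, so each comparison has 1 line without such a library, line 3 for BrafV600E and line 1 for long culture. Of 141 alternative means of named members, 116 were unchanged or moved by less than the SD of the 2 lines, 24 moved by more, and 1 reversed. The reversed mean, Sox3 in line 1 with long culture, was -8.39 points with 10 kb either side. Another 27 alternative means had no tile left. The SD is of 2 values and is wide where the lines went opposite ways. At Sox10, Tbx6 and Tbx18, named for that reason, no alternative moved by more. Some alternatives also kept the same tiles, so the 116 do not measure how stable the means are. The cause of these changes was not tested. Depth could not be weighed, since no read counts were used.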
